A study of Mus musculus with 278 samples.

Results

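The comparison set the brighter against the dimmer ID4-EGFP+ spermatogonia of neonatal mice, which together are all 278 cells measured. Each cell carries a quartile of EGFP brightness, with Q1 the brightest and Q4 the dimmest in the study's design text. Cells labelled Q1 (74) or Q2 (70) are called the brighter cells, and cells labelled Q3 (74) or Q4 (60) the dimmer cells. Both groups came from untreated pups at postnatal day 6 that carry an Id4 reporter, EGFP. Testes of several pups were pooled for each of 5 preparations, EGFP+ cells were sorted, and single cells were caught on Fluidigm C1 chips and imaged before their polyA RNA was amplified. The sources used here do not give the strain or the reporter construct. No EGFP-negative cell was used, so the comparison is within the reporter-positive population. A passage in the protocols gives the dim quartile another number, and the order in the design text was followed. The preparations held 15, 32, 18, 40 and 39 brighter cells and 11, 30, 19, 35 and 39 dimmer cells, in preparations 1 to 5. Cells of a preparation share their pooled testes, so the preparation was the replicate (n = 5) and brighter cells were compared with dimmer cells inside it.

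ID4 is a helix-loop-helix protein with no DNA-binding region of its own. It pairs with E-proteins such as TCF3 and TCF12 and keeps them from E-box sites, and in the neonatal mouse testis its reporter is brightest in spermatogonia with stem cell activity. Stem and early undifferentiated spermatogonia depend on GDNF, which binds the receptor GFRA1 with its partner RET and induces transcription factors such as Etv5 and Bcl6b. Progenitors and then KIT-positive differentiating spermatogonia follow under retinoic acid, and P6 testes hold all of these stages.

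Every one of the 278 cells had germ cell transcripts. A cell had a median of 7 of 8 germ cell markers, and none had fewer than 4. Brighter cells had 4.44 of 6 markers of undifferentiated spermatogonia and dimmer cells 3.78, and the means for 5 differentiation markers were 3.31 and 3.32. Markers of somatic testis cells were low but not absent. A Sertoli cell marker was seen in 74 cells, with a median of 4 cells for each of the 7 markers and none for Amh, and the markers summed to 5.16 to 39.9 FPKM in brighter and 0.169 to 23.1 FPKM in dimmer cells over preparations. An endothelial marker was seen in 60 cells and a macrophage or blood marker in 47, and 5 of 6 Leydig cell markers were listed at 0 while the other was seen in 55 cells. A longer list of 15 Sertoli cell genes summed to 140.5 FPKM in brighter and 132.5 FPKM in dimmer cells. Most of it was Ctsl, a lysosomal protease (114.5 ± 23.3 and 108.8 ± 25.1 FPKM, SD, n = 5), which was higher in brighter cells in 5 of 5 preparations by 0.49 ± 0.18 on the log2 scale. Egfl7, from a list of 9 endothelial genes, was also higher in 5 of 5 (19.03 ± 8.41 and 16.5 ± 7.34 FPKM). The median of the 3 endothelial genes tested was above that of all genes in each preparation, by 0.07 to 0.21. In the fit over the 5 preparations, however, their median less that of all genes was -0.04. The part of other cell types in the results was not tested. The matrix holds FPKM (fragments of a transcript scaled to its length and to the cell's mapped fragments), with no counts. From the smallest steps of 2110 genes a cell's depth was estimated at a median of 614108 fragments (range 205443 to 1230493). Brighter cells exceeded dimmer cells in estimated depth by 0.11 ± 0.17 on the log2 scale (SD, 5 preparations; exact sign-flip permutation test, two-sided, p = 0.125), by 0.40 in preparation 1 and by -0.02 to 0.09 in the other 4.

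No gene passed the test between brighter and dimmer cells. Mean log2(FPKM + 1) was taken for each preparation and group, and the 10 means were fitted in limma for the 10452 genes that reached an FPKM of 1 in 10% of cells or more. The number past an adjusted p of 0.05 was 0 higher (0% of genes tested) and 0 lower (0%), and the smallest adjusted p was 0.293. Each difference is given as brighter minus dimmer with its SE, on the log2(FPKM + 1) scale, which understates the change of low genes. At an unadjusted p under 0.05 the fit held 934 genes, of which 799 were higher in brighter cells (7.64% of genes tested) and the others lower (1.29%). In the same 5 preparations, the extreme quartiles alone gave 8 genes past the adjusted threshold, all higher in Q1 than in Q4 (0.0765% higher and 0% lower). The difference was above 0 for 6902 genes (66.04%), and its median over all genes was 0.09. Between preparations the median was 0.01, 0.00, 0.17, 0.10 and 0.12 in preparations 1 to 5. The same direction in 5 of 5 preparations was found for 716 higher genes (6.85%) and 221 lower genes (2.11%). Differences of single genes had little in common from one preparation to the next: over 10 pairs of preparations, the correlation across genes was between 0.00 and 0.07. The one-sided split moved with the number of detected genes. Among cells matched 1 to 1 inside a preparation on that number (224 cells), 412 genes were higher and 353 lower at an unadjusted p under 0.05, and the median difference was 0.00.

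Brighter cells had more detected genes in each preparation. At an FPKM of at least 1, brighter cells averaged 7192, 6971, 4752, 6222 and 6100 genes in preparations 1 to 5. Dimmer cells averaged 7089, 6928, 4139, 5898 and 5651. The difference of 306 ± 238 genes (SD, 5 preparations) ranged between 43 and 614 and was positive in 5 of 5 preparations, with an exact sign-flip permutation p of 0.063 (two-sided), the smallest that 5 pairs can give. Across preparations the groups overlapped widely, and the preparations differed from each other by far more than brighter from dimmer cells did. Cells of the same preparation and brightness group were also more alike among brighter cells. The mean correlation between such cells was 0.641, 0.608, 0.504, 0.591 and 0.583 for brighter cells and 0.629, 0.605, 0.452, 0.586 and 0.568 for dimmer cells. That difference of 0.0176 ± 0.0197 (p = 0.063, the same exact permutation test) was 0.0090 without preparation 3, and -0.0010 among the matched cells (exact permutation p = 0.8125), in which the number of detected genes was nearly equal.

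**Figure D1:**
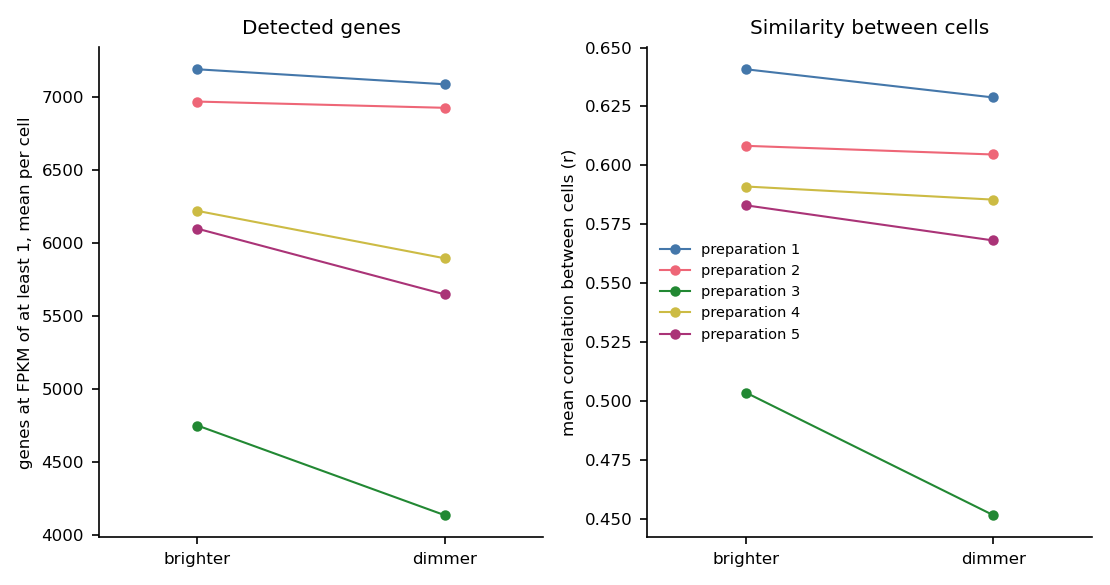
Mean number of genes detected per cell (left) and mean Pearson correlation of log2(FPKM + 1) between cells of the same preparation and group (right), for brighter and dimmer cells; each line is 1 of the 5 preparations. All 5 lines of the left panel run down to the dimmer cells, by 43 to 614 genes, and preparation 3 lies lowest in both panels.

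Id4 itself, and receptors and targets of the GDNF pathway, were higher in brighter cells in 4 or 5 of 5 preparations, although none passed the test. Over all genes 66.04% had a difference above 0 and 6.85% were higher in 5 of 5 preparations. The share of all genes higher in 4 of 5 was not counted. Id4 averaged 11.01, 7.14, 13.4, 13.6 and 19.05 FPKM in brighter cells of preparations 1 to 5, against 1.83, 9.91, 4.51, 9.01 and 1.83 FPKM in dimmer cells. Brighter cells were above dimmer ones in 4 preparations and below them in preparation 2. The fitted difference was 0.88 ± 0.27 (adjusted p = 0.406). Among pairs of a brighter and a dimmer cell of a preparation, the brighter cell was higher in 60.2%, ties counted as equal shares. This cell pair share is the mean of the shares of the 5 preparations, each counted equally. Across all genes tested that share had a median of 51.3% and a 5th to 95th percentile of 44.7% to 57.9%.

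Gfra1, the GDNF co-receptor, averaged 65.1, 28.1, 70.7, 28.1 and 34.9 FPKM in brighter cells, against 28.9, 38.3, 55.5, 13.5 and 31.04 FPKM in dimmer cells. Preparation 2 again ran the other way. Its fitted difference was 1.08 ± 0.32 (adjusted p = 0.406) and its cell pair share 63.8%. Ret, which encodes the signalling receptor, was higher in 5 of 5 preparations by 0.83 ± 0.27 (adjusted p = 0.429), with 18.9 ± 4.64 FPKM in brighter and 12.6 ± 4.42 FPKM in dimmer cells (SD, n = 5) and a cell pair share of 64.9%. Etv5, a GDNF- and FGF-induced transcription factor, averaged 57.01, 50.9, 75.7, 34.7 and 47.5 FPKM in brighter cells and 57.96, 40.7, 47.96, 26.6 and 30.5 FPKM in dimmer cells. Its groups were level in preparation 1 and apart in the other four, with a difference of 1.15 ± 0.28 (adjusted p = 0.406). Bcl6b, another GDNF-induced factor, was higher in 5 of 5 preparations by 0.85 ± 0.23, with 20.8 ± 7.20 FPKM in brighter and 10.8 ± 5.27 FPKM in dimmer cells. Dusp6, which encodes a phosphatase that dampens ERK signalling, differed by 1.21 ± 0.30 and ran the other way in preparation 2 alone of the 5. Tcl1, an AKT co-activator, had 5 differences above 0, at 0.60, 0.44, 1.12, 0.68 and 3.35, so preparation 5 stood well apart.

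The promoters of Id4, the gene behind the reporter, of Gfra1 and Etv5, and of Zfp948, which had the smallest p of all genes, are shown for the E-box core that ID proteins keep E-proteins from. They are the 250 bases before the RefSeq start on GRCm38.p6, at chr13:48260866-48261115 (+) for Id4, chr19:58455399-58455648 (-) for Gfra1, chr16:22439571-22439820 (-) for Etv5 (1 of 2 starts) and chr17:21566728-21566977 (+) for Zfp948. Capitals mark each CANNTG, which reads the same on both strands.
Id4: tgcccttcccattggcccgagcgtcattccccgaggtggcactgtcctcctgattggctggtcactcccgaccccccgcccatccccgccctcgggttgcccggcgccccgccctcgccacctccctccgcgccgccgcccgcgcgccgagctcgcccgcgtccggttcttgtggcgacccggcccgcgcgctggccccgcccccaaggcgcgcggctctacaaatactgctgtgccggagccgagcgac
Gfra1: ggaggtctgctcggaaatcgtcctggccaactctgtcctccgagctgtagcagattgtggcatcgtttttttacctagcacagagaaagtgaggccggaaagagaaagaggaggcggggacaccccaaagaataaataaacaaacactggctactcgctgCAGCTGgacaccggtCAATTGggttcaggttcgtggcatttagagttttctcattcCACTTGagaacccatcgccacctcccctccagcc
Etv5: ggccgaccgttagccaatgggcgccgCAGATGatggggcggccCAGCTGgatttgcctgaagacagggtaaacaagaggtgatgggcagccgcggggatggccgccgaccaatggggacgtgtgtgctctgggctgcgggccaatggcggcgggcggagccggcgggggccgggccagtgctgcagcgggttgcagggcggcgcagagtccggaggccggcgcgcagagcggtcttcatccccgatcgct
Zfp948: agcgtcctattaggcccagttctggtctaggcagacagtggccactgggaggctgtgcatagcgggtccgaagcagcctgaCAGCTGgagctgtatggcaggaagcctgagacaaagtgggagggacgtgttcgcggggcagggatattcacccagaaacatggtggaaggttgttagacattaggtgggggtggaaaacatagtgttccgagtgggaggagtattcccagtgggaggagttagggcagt
The core was found 0 times for Id4, 3 times for Gfra1, 2 times for Etv5 and 1 time for Zfp948. Among 32851 RefSeq promoters of the same length 66.2% hold it at least 1 time, 31.8% at least 2 times and 12.2% at least 3 times, so a match is common among promoters. In GENCODE M21, exons of Id4, Gfra1, Nanos2, Neurog3, Lin28a, Ccnd2, Sphk1, Uchl1, Nefm, Zfp36, Dusp1, Rfc2, Mest, Ezh2, Pdha1, Mcam, Cd9, Cox4i1, Snrpn, H19, Sycp3, Ctsl and Egfl7 overlap a transcript on the opposite strand, and as the sources used here do not say whether strand was kept, reads of such pairs cannot be told apart.

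Of the list of genes associated with spermatogonial stem cells, 25 were tested and 25 had a difference above 0, against 66.04% of all genes. Of these, 9 were higher and 0 lower at an unadjusted p under 0.05, and 5 were higher in 5 of 5 preparations. The shares over all genes were 7.64%, 1.29% and 6.85%. The list median was 0.32, which is 0.23 above that of all genes. It was above that of all genes in 5 of 5 preparations, by 0.13 to 0.55. The list of GDNF and FGF response genes had 22 of 23 above 0, with 13 higher and 0 lower at an unadjusted p under 0.05. Of its genes 7 were higher in 5 of 5 preparations, and its median was 0.35 above that of all genes (0.20 to 0.55 by preparation). Ccnd2, a D-type cyclin that GDNF induces, was higher in 5 of 5 preparations by 0.81 ± 0.23. The lists share members such as Etv5 and Bcl6b, and they were written with earlier results of these data known, so their direction is a description. Brighter cells also had more detected genes, as given above. Among matched cells 22 of 25 stem cell genes and 20 of 23 response genes were above 0, and with the number of detected genes as a covariate 18 of 25 and 18 of 23 were. The median of all genes was itself 0.0011 in matched cells and -0.019 with the covariate. The 66.04% belongs to the fit as reported and does not apply to these counts. The covariate was a mean of each preparation and brightness group, not a value of each cell. It was higher in brighter cells in 5 of 5 preparations, so it overlaps with brightness in that fit. In the fit with the covariate Id4 differed by 0.10, Gfra1 by -0.05, Etv5 by 0.05 and Ret by 0.30. In matched cells these genes differed by 0.90, 0.86, 1.07 and 0.97. The ID and E-protein genes had 5 of 5 members above 0. Id3 was higher in 5 of 5 preparations by 0.34 ± 0.16, while the E-protein genes Tcf12 (0.43 ± 0.28) and Tcf3 (0.35 ± 0.24) were higher in 3 of 5. Nanos2, an RNA-binding protein of stem spermatogonia, and Zbtb16, a transcriptional repressor that maintains them, differed by 0.10 ± 0.15 and 0.22 ± 0.20.

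**Figure D2:**
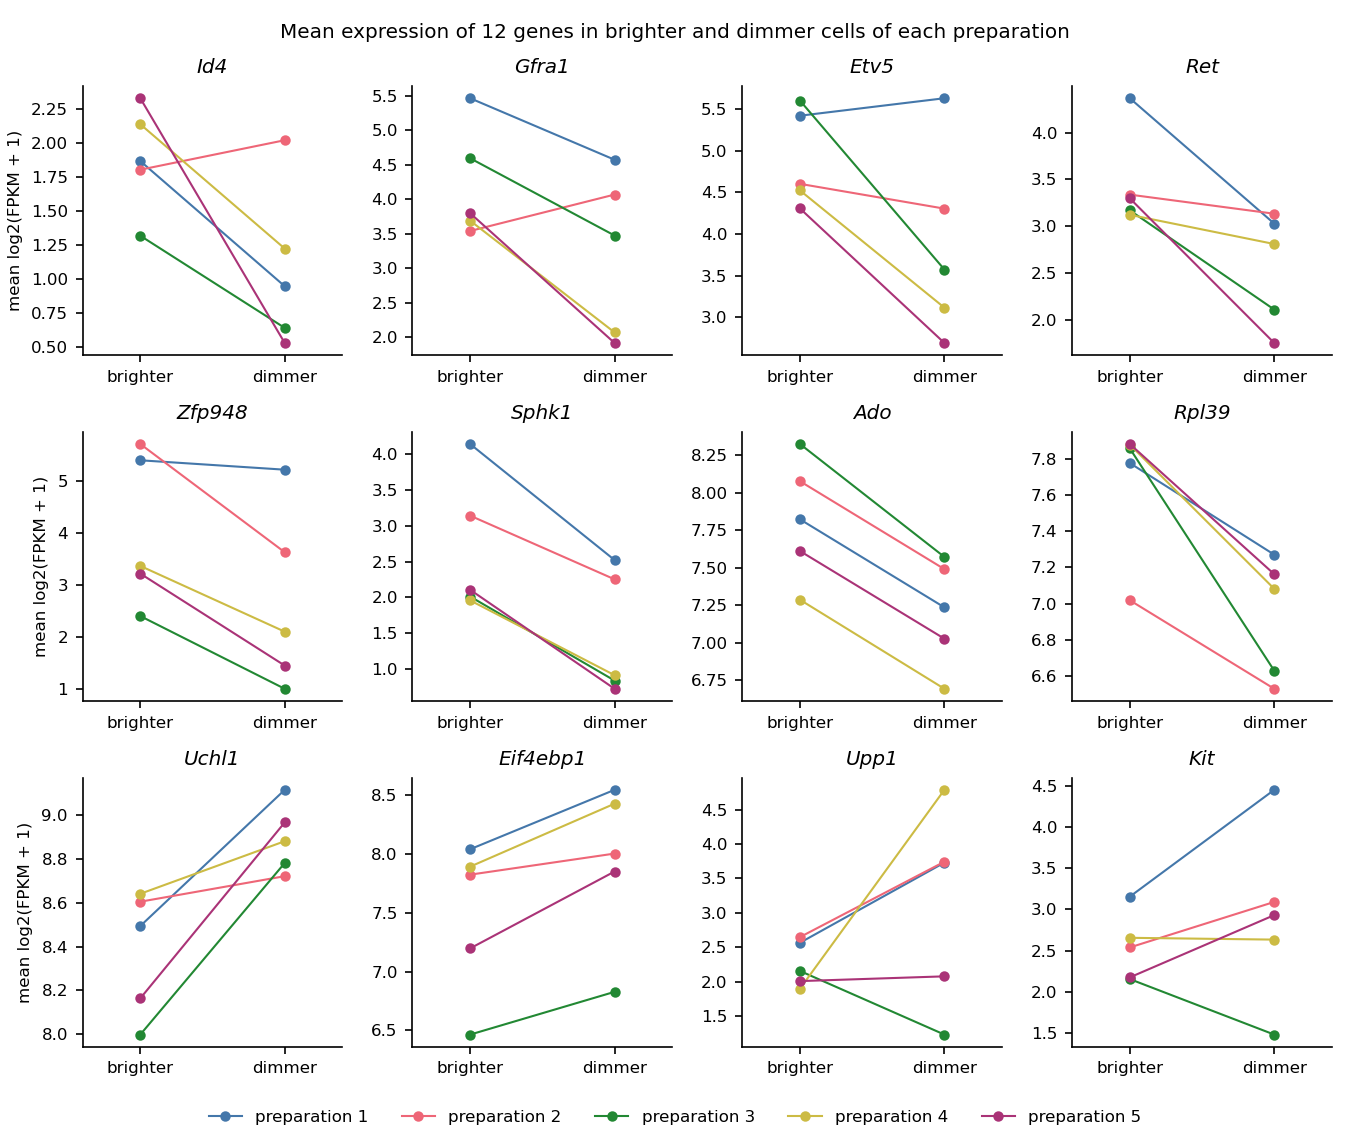
Mean log2(FPKM + 1) of 12 genes in brighter and dimmer cells; each line joins both groups of 1 of the 5 preparations, and each panel has its own axis. The lines of Ret, Zfp948, Sphk1, Ado and Rpl39 all run down to the dimmer cells, those of Uchl1 and Eif4ebp1 all run up, and Id4 and Gfra1 run up in preparation 2 only.

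The genes with the smallest p and the same direction in 5 of 5 preparations were mostly outside these pathways. Zfp948, a zinc finger protein gene at chr17:21567008-21588699 (+) in GENCODE M21 on GRCm38, averaged 109.2, 147.5, 83.4, 53.4 and 69.1 FPKM in brighter cells, against 93.2, 82.5, 5.42, 19.3 and 25.9 FPKM in dimmer cells. Preparation 1 had nearly equal values, and the other 4 differed by 1.26 to 2.08. The fitted difference was 1.50 ± 0.26 (adjusted p = 0.293). Sphk1, the kinase that makes sphingosine 1-phosphate, averaged 44.6, 31.5, 24.01, 26.7 and 24.9 FPKM in brighter cells and 23.8, 25.9, 7.99, 7.19 and 5.68 FPKM in dimmer cells. Its difference was 1.18 ± 0.22, between 0.89 and 1.62 by preparation. Ado, the cysteamine dioxygenase gene, had the most even difference, at 0.59, 0.59, 0.75, 0.59 and 0.58 in preparations 1 to 5 (0.61 ± 0.12). As mean FPKM it was 276.5, 307.5, 381.9, 232.5 and 280.2 in brighter cells and 183.1, 258.5, 385.8, 208.2 and 221.6 in dimmer cells, so that in preparation 3 the linear mean did not share the direction of the log scale.

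Rpl39, a protein of the large ribosomal subunit, averaged 249.6, 184.7, 270.3, 282.3 and 300.5 FPKM in brighter cells and 168.6, 133.4, 220.0, 192.8 and 197.8 FPKM in dimmer cells. All 5 differences lay between 0.49 and 1.23 (0.74 ± 0.14, adjusted p = 0.293). Rpl39 at chrX:37082520-37085402 (-) lies 6.275 kb from Upf3b at chrX:37091678-37110322 (-), whose product links exon junctions to nonsense-mediated decay. Upf3b differed by 1.16 ± 0.30, higher in 4 of 5 preparations, and between cells of a preparation and brightness group both transcripts had a median correlation of 0.36 (-0.19 to 0.63 over 10 groups of cells, a description). Of the other higher genes of this kind, Rab4a, an endosomal GTPase, differed by 0.93 ± 0.19, with a transcript in 34.1% ± 11.9 of brighter and 16.6% ± 14.9 of dimmer cells (SD, n = 5). Rcl1, a factor of ribosomal RNA processing, differed by 1.06 ± 0.23, and Tubg2, a gamma-tubulin, by 1.22 ± 0.27. The remaining 3 of the 10, 1500016L03Rik, D6Wsu163e and Zfp661, differed by 0.65 to 0.92 and were detected in a minority of cells. From Q4 to Q1 the shares were 14.8%, 21.7%, 30.2% and 43.6% for 1500016L03Rik. They were 10.9%, 22.6%, 34.9% and 36.8% for D6Wsu163e, and 7.39%, 7.86%, 24.5% and 14.3% for Zfp661. Capg, an actin-capping protein, was higher in 5 of 5 preparations by 1.19 ± 0.28, and Nefm, a neurofilament protein, by 0.95 ± 0.26. Hlf, a PAR bZIP transcription factor, was higher in 4 of 5 by 0.74 ± 0.23.

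In the opposite direction, Uchl1 had the smallest p. It encodes a deubiquitinating enzyme that is abundant in spermatogonia. Uchl1 averaged 376.7, 432.2, 309.1, 439.8 and 355.0 FPKM in brighter cells, against 581.4, 457.5, 504.3, 514.8 and 547.6 FPKM in dimmer cells, so that each brighter value lay below each dimmer value. The difference was -0.48 ± 0.12 (adjusted p = 0.406), and the brighter cell was higher in 30.01% of cell pairs (mean over preparations), the lowest share of the 10452 genes. Eif4ebp1, which encodes a repressor of cap-dependent translation, averaged 274.9, 252.2, 133.7, 277.2 and 186.2 FPKM in brighter cells, against 416.3, 274.4, 237.6, 408.4 and 266.0 FPKM in dimmer cells. It was lower in 5 of 5 preparations, and the fitted difference was -0.46 ± 0.12 (adjusted p = 0.406). Nmt2, an N-myristoyltransferase, differed by -0.42 ± 0.12 with 290 ± 31.3 FPKM in brighter and 362 ± 58.5 FPKM in dimmer cells. Ece2, Deb1, Gm129, Lhfpl2 and Ppp1r21 differed by -0.76 to -0.49, and exons of Ece2 overlap another gene on the same strand. Lhfpl2 was detected in only 16.6%, 29.7%, 15.9% and 8.46% of cells from Q4 to Q1, and Ppp1r21 in 32.7%, 36.4%, 15.4% and 29.2%.

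Most progenitor and differentiation genes had differences below 0 and none passed the test, and the differentiation list was divided between preparations. Neurog3, a transcription factor of progenitors, had a transcript in 7.82% ± 6.47 of brighter and 13.4% ± 4.41 of dimmer cells and differed by -0.35 ± 0.13 (1 of 5 preparations higher). Sox3, another progenitor factor, was detected in fewer brighter cells in 5 of 5 preparations (26.6% ± 11.4 and 46.3% ± 8.86). Upp1, uridine phosphorylase, averaged 25.2, 32.2, 39.2, 29.3 and 22.2 FPKM in brighter cells and 52.1, 61.2, 53.1, 83 and 43.2 FPKM in dimmer cells. Its groups did not overlap in mean FPKM, but the log scale gave -1.17, -1.10, 0.93, -2.89 and -0.07, with preparation 3 reversed. Kit, the receptor that marks differentiating spermatogonia, averaged 18.2 ± 2.89 FPKM in brighter and 27.3 ± 9.18 FPKM in dimmer cells and differed by -0.36 ± 0.27, higher in 2 of 5 preparations. Sohlh1, a helix-loop-helix factor that induces Kit, and Dnmt3b, a DNA methyltransferase, differed by -0.40 ± 0.22 and -0.35 ± 0.24. Stra8, a retinoic acid target, differed by -0.14 ± 0.23 and Lin28a, an RNA-binding protein of undifferentiated spermatogonia, by 0.26 ± 0.21. Over all genes tested, 66.04% were above 0, and 7.64% were higher and 1.29% lower at an unadjusted p under 0.05. In 5 of 5 preparations 6.85% were higher and 2.11% lower. Of the 8 progenitor genes tested 3 were above 0, with 0 higher and 2 lower at an unadjusted p under 0.05. The progenitor median was 0.22 below that of all genes. Of 11 differentiation genes 3 were above 0, with 0 higher and 0 lower at an unadjusted p under 0.05 and 0 in the same direction in 5 of 5 preparations. Their median was -0.54, 0.03, 0.36, 0.14 and -0.67 in preparations 1 to 5, and lay between 0.79 below and 0.19 above that of all genes. Tet3, a DNA demethylating enzyme from the list of DNA methylation genes, was lower in 5 of 5 preparations, with a difference of -0.54 ± 0.19.

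A difference of means can come from how many cells have a transcript or from how much those cells have, and the named genes differed in this. Gfra1 was detected at an FPKM of at least 1 in 83.8% ± 6.54 of brighter and 65.2% ± 27.2 of dimmer cells (SD, n = 5), while the level among cells that had it differed by 0.03 on the log2 scale. Etv5 was detected in 94.98% ± 3.81 of brighter and 71.7% ± 20.4 of dimmer cells, with a level difference of -0.21, and Dusp6 in 92.7% ± 6.69 and 69.9% ± 16.9, with a level difference of 0.07. In preparations 1 and 2, dimmer cells had Gfra1 in 100% and 86.7% of cells, and in preparations 3 to 5 in 57.9%, 45.7% and 35.9%. In brighter cells the range over all 5 was 75% to 93.3%. Kit gave the other pattern. It was detected in 62.7% ± 19.4 of brighter and 60.6% ± 26.4 of dimmer cells, and its level among cells that had it was lower in brighter cells in 5 of 5 preparations, with a mean difference of -0.75. The level was also lower in brighter cells in 5 of 5 preparations for Sohlh1 (-0.58), Dnmt3b (-0.55) and Upp1 (-1.05). Unlike Kit, Upp1 was also detected in fewer brighter cells, at 60.8%, 44.8%, 43.5% and 42.7% of cells from Q4 to Q1. Over the 9435 genes with cells to average in each preparation and group, the level was lower in brighter cells in 5 of 5 preparations for 464 (4.92%) and higher for 287 (3.04%), and the median level difference was -0.05. The share of cells with the transcript was higher in 5 of 5 preparations for 642 of 10452 genes (6.14%) and lower for 81 (0.775%), with a median difference of 2.48 percentage points. Sox3 was split, with fewer brighter cells that had it and a higher level in them (0.46, 5 of 5 preparations), in preparation 3 from 11.1% of brighter cells. FPKM cannot be thinned to equal depth, so shares were not corrected for the number of detected genes.

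**Figure D3:**
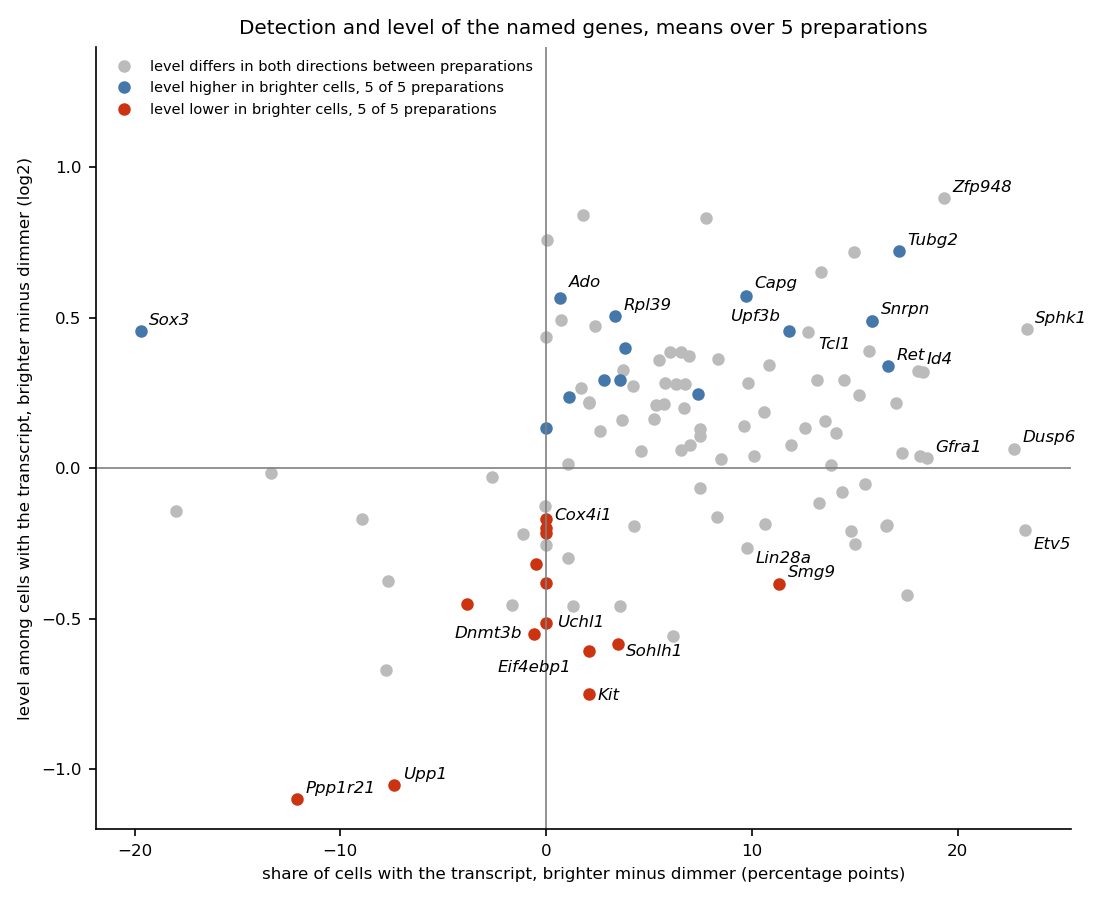
Difference in the share of cells with the transcript (x axis, percentage points) against the difference in log2(FPKM + 1) among those cells (y axis), brighter minus dimmer, means over 5 preparations for named genes with cells to average in each; colours mark a level in the same direction in 5 of 5 preparations. Gfra1, Dusp6 and Etv5 lie far right near or below 0, and Kit, Sohlh1, Dnmt3b and Eif4ebp1 lie near the middle of the x axis below -0.5.

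Cytosolic ribosomal protein genes, and to a smaller extent those of the respiratory chain, had small differences that were more often below than above 0, and in both lists this depended on the scaling. Of 81 cytosolic ribosomal protein genes 63 were below 0, and 25 were lower in 5 of 5 preparations and 3 higher. At an unadjusted p under 0.05 there were 7 lower and 3 higher ribosomal protein genes. Over all genes tested, 2.11% were lower and 6.85% higher in 5 of 5 preparations, and 1.29% lower and 7.64% higher at that threshold. After scaling the cells to equal 75th percentiles 35 were below 0 and 46 above, while the median of all genes moved to 0.14. Relative to the median of all genes their median was -0.18 as deposited, and below 0 in 5 of 5 preparations. Rpl41 differed by -0.15 ± 0.05 and was lower in 5 of 5 preparations, so that Rpl39 had the opposite sign to most of its complex. Reads of ribosomal protein genes can be shared with near-identical pseudogene copies, and their values are uncertain in that respect. Of 78 nuclear-encoded respiratory chain genes 10 were lower and 1 higher in 5 of 5 preparations, with 43 below 0, against 39 with a pseudocount of 0.1 and 26 at equal 75th percentiles. Cox4i1, of cytochrome oxidase, averaged 1889 ± 159 FPKM in brighter and 2174 ± 130.4 FPKM in dimmer cells, and Uqcrc1, of complex III, differed by -0.32 ± 0.11. Proteasome genes had a median 0.09 below that of all genes, with 5 of 46 lower in 5 of 5 preparations.

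Immediate early and heat shock genes, which respond within minutes to signals and to handling, had 17 of 17 members above 0, 5 higher at an unadjusted p under 0.05 and 4 higher in 5 of 5 preparations. The shares over all genes were 66.04%, 7.64% and 6.85%. This list overlaps with that of the GDNF and FGF response genes, so their counts are not separate. In preparation 5 the same gene gave the median of both lists, 0.66. With detected genes as a covariate 10 of 17 were above 0, on the log of the mean over cells 13, and in preparation 3 the list median was 0.15 below that of all genes. The median of all genes, 0.09 as reported, was -0.019 with the covariate, 0.0122 on the log of the mean and 0.0011 in matched cells. The 66.04% therefore does not apply to counts in those settings, here and for the lists that follow. Egr1 differed by 0.69 ± 0.21, Zfp36 by 0.64 ± 0.18 and Dusp1 by 0.73 ± 0.25, each higher in 5 of 5 preparations, and Fos by 0.72 ± 0.24, higher in 4. Fos had a transcript in 45.8% ± 33.3 of brighter and 30.1% ± 27.8 of dimmer cells, so that preparations differed more than brightness did. G1/S genes had 38 of 42 members above 0, with 7 higher at an unadjusted p under 0.05 and a median 0.17 above that of all genes. Rfc2, of the clamp loader, differed by 0.51 ± 0.18 and Ccne1, cyclin E1, by 0.44 ± 0.19, each higher in 5 of 5 preparations. Among matched cells 27 of 42 were above 0, and with detected genes as a covariate 19. G2/M genes had a median at that of all genes, with Bub1b, a spindle checkpoint kinase, higher by 0.68 ± 0.21. Of 25 imprinted genes 6 were higher and 0 lower at an unadjusted p under 0.05, against 7.64% and 1.29% of all genes. Their median was above that of all genes in 3 of 5 preparations, and 20 were above 0, against 15 with the covariate. Snrpn, a splicing protein gene expressed from the paternal allele, was higher in 5 of 5 preparations by 1.01 ± 0.25 (adjusted p = 0.406), at 22.9 ± 8.95 FPKM in brighter and 15.7 ± 7.28 FPKM in dimmer cells. Snurf shares exons with Snrpn, and their values across cells had a correlation of at least 0.96 in each of 10 groups of cells. They are thus 1 signal, although the 6 and the 20 imprinted genes above count them separately. H19, a maternally expressed noncoding RNA, averaged 7.14 ± 1.73 FPKM in brighter and 2.36 ± 0.577 FPKM in dimmer cells (0.54 ± 0.17). TCA cycle genes included 6 of 26 higher at an unadjusted p under 0.05, among them Pdha1, of pyruvate dehydrogenase, at 1.05 ± 0.26. Their list median was above that of all genes in 2 of 5 preparations. Surface and adhesion genes had 8 of 18 higher at that threshold and 15 above 0, against 10 with the covariate. Mcam, a cell adhesion molecule, differed by 0.99 ± 0.27 and Cd9, a tetraspanin used to enrich stem cells, by 0.48 ± 0.16. Ezh2, the Polycomb methyltransferase, was higher in 5 of 5 preparations by 0.74 ± 0.24.

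**Figure D4:**
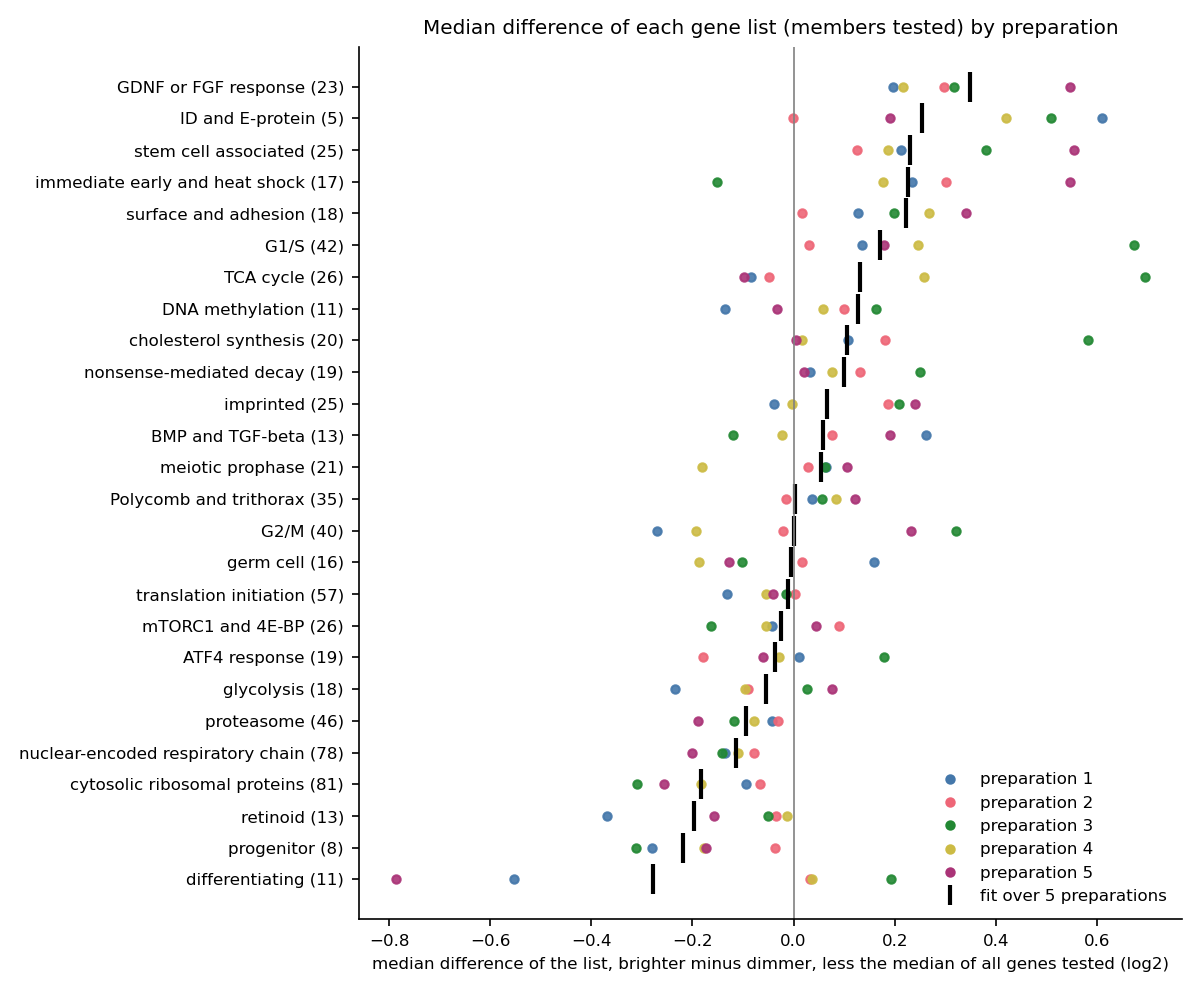
Median difference (brighter minus dimmer, log2) of each gene list less the median of all genes tested, for each of 5 preparations (points) and for the fit (bars); lists of at least 5 genes tested are shown, with that number in brackets. GDNF or FGF response, stem cell, surface, G1/S, cholesterol synthesis and nonsense-mediated decay genes lie above 0 in 5 of 5 preparations. Ribosomal protein, respiratory chain, proteasome, progenitor and retinoid genes lie below 0 in 5 of 5. Some points lie close to 0, such as 0.005 for cholesterol synthesis, 0.017 for surface, 0.022 for nonsense-mediated decay, 0.030 for G1/S and -0.012 for retinoid genes. Differentiation genes have the widest spread of the lists shown, between -0.79 and 0.19.

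The division between brighter and dimmer cells falls between Q3 and Q2, and the named genes differed in whether their largest step lay there. Steps between neighbouring quartiles were fitted on 20 means (5 preparations by 4 quartiles). At an unadjusted p under 0.05 the step Q3 minus Q4 had 773 genes (694 higher), Q2 minus Q3 489 (287 higher) and Q1 minus Q2 426 (234 higher), with 0 past the adjusted threshold in each. The median of all genes stepped by 0.14, 0.03 and 0.01 in that order, and the number of detected genes by 374 ± 329, 67.3 ± 137.9 and 120 ± 297 (SD, 5 preparations). Whether the steps differ from each other was not tested. Zfp948 averaged 41.1 FPKM in Q4, 47.8 in Q3, 123.5 in Q2 and 69.4 in Q1, with a step of 1.59 ± 0.37 between Q3 and Q2. Sphk1 likewise stepped by 1.22 ± 0.37 between Q3 and Q2, Ado by 0.71 ± 0.17 and Uchl1 by -0.47 ± 0.15, and these 3 genes had steps between -0.17 and 0.02 on either side. Zfp948, Sphk1, Ado and Uchl1 were named for their small p between brighter and dimmer cells. That choice, made on the same cells, favours a step at the dividing line, so its place in these genes is a description. The genes that follow are set genes. Id4 averaged 3.77, 6.68, 8.61 and 17.4 FPKM from Q4 to Q1, and its largest step, 0.92 ± 0.40, was the one from Q2 to Q1. Hlf had its largest step there too (1.27 ± 0.29). Snrpn (1.40 ± 0.39), Upf3b (1.48 ± 0.41) and Nefm (0.96 ± 0.35) stepped most between Q4 and Q3, and little between Q3 and Q2 (-0.01 ± 0.38, 0.18 ± 0.39 and 0.14 ± 0.34). Gfra1 was detected in 52.6%, 75%, 78.4% and 88.02% of cells from Q4 to Q1. Upp1 averaged 83.9, 40.6, 30.03 and 27.6 FPKM from Q4 to Q1. Quartiles of a preparation held between 4 and 20 cells, so their means carry more error than those of the joined groups.

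**Figure D5:**
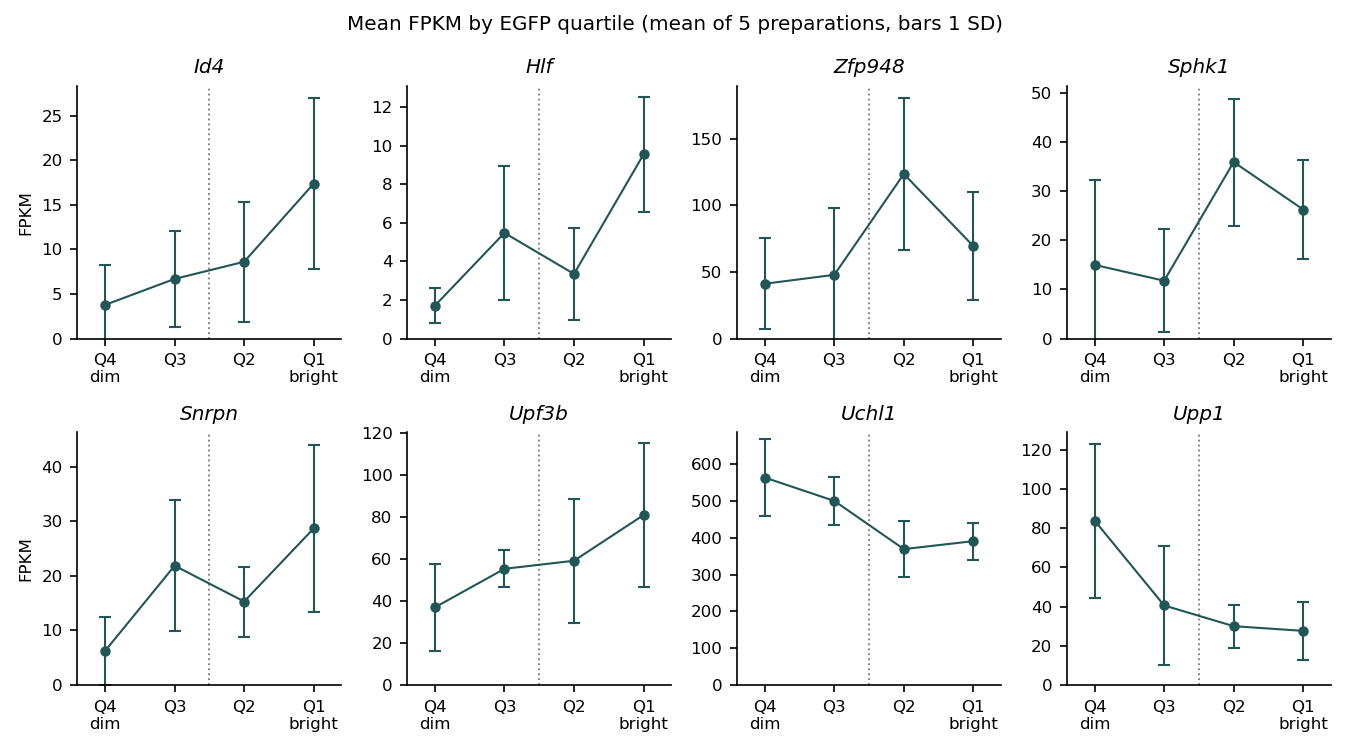
Mean FPKM of 8 genes from the dim quartile Q4 to the bright quartile Q1 (mean of 5 preparations, bars 1 SD, cut off at 0); the dotted line divides dimmer from brighter cells. Zfp948, Sphk1 and Uchl1, which were named for their difference across the line, step there. Id4 and Hlf are highest in Q1, and Snrpn and Upf3b are lowest in Q4.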

How the data were processed

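Single-cell polyA RNA-seq of 278 cells was deposited as 1 matrix of FPKM per gene symbol and cell. The authors used TopHat and Cufflinks with FastQC and Picard on mm10 (GRCm38), per the submitters' processing notes; the sources used here do not give versions, settings or the annotation, and FPKM was read from the tool's name and the deposited values. FPKM is relative to a cell's mapped fragments and does not measure the amount of RNA. Values became log2(FPKM + 1) and were averaged per preparation and brightness group. Genes that reached an FPKM of 1 in 10% of cells or more were fitted in limma 3.58.1 (R 4.3.3, trend, weights of the number of cells, two-sided, Benjamini-Hochberg) with preparation as a block. Same-preparation means deviated together (lowest r = 0.19), and both groups of a preparation come from the same pooled testes. Deviations were taken from the mean of each brightness group over preparations. This centring pushes the correlation between different preparations below 0 (median -0.13), so that value is no separate support for the pairing. Named genes are the 10 of smallest p in each direction with the same sign in 5 of 5 preparations, 24 set genes, and up to 4 members of smallest p in each list. The comparison, the lists and the set genes were chosen with earlier results of these data known. Where the labels do not say that preparations came from separate litters, p-values measure the spread between preparations only. Some genes that the rule names are not reported here.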

Additional observations from a re-analysis of the deposited data

Results flagged for a closer look

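In 9 sets of 5 values, 8.57% of those examined, 1 preparation lay far from the other 4; chance gives about 1 in 20. Preparation 3, which had the fewest detected genes, was the one apart in 5 of the 9. Its difference between brighter and dimmer cells was 0.0519 in the similarity between cells, against at most 0.0149 elsewhere. It was 0.82 for Zbtb16, against at most 0.26 elsewhere, 0.93 for Sohlh1, against at most -0.51, -0.54 for Hlf, against at least 0.84, and 0.75 for Ado, against at most 0.59. Preparation 5 was apart for Tcl1, at 3.35 against at most 1.12, and for Pdha1, at 2.03 against at most 0.87. In preparation 2 the difference of Dusp6 was -0.29, against at least 1.25 elsewhere. In preparation 4 the median of meiotic prophase genes, less that of all genes, was -0.18, against at least 0.03 elsewhere.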

How the results depend on the processing

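The count of genes past the adjusted threshold was 0 between brighter and dimmer cells under each of the 15 alternatives, and 0 for each step between quartiles. Genes at an unadjusted p under 0.05, 934 as reported, numbered 293 with no replicate block and 394 with detected genes as a covariate, and between 655 and 988 when 1 preparation was left out. Without the block the steps Q3 minus Q4, Q2 minus Q3 and Q1 minus Q2 had 285, 207 and 182 genes, against 773, 489 and 426 with the pairing kept. The median difference of all genes, 0.09, was 0.18 with a pseudocount of 0.1, -0.019 with the covariate, 0.0011 in matched cells and 0.0122 on the log of the mean over cells. Of the unadjusted calls 85.5% were higher in brighter cells as reported, 94.2% at a common 75th percentile, 54.8% on the log of the mean, 53.9% in matched cells and 50.3% with the covariate. The similarity difference became -0.0010 in matched cells. Of 70 genes, 56 kept their sign in all 15 alternatives. With the covariate the sign turned for Gfra1 (-0.046), Zbtb16 (-0.028), Sox3 (0.0094), Dnmt3b (0.11), Tcf12 (-0.11), Tcf3 (-0.19), Chaf1b (-0.074), Dlst (-0.0087), Mcam (-0.17) and Sycp3 (0.035). It turned for Nanos2 in matched cells (-0.082), and for Zbtb16 (-0.046), Lin28a (-0.028) and Dusp1 (-0.057) on the log of the mean. Stra8 lay between -0.33 and 0.10 when 1 preparation was left out, above 0 without preparation 5. The median of the progenitor list relative to all genes was -0.022 with the covariate and -0.48 with a pseudocount of 0.1, against -0.22 as reported. The covariate is itself measured from the same expression values, as a mean of each preparation and brightness group. The cause of these moves was not tested. Depth limits most the transcripts found in few cells, where a value of 0 can be a molecule not captured.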
